A study of Mus musculus with 4 samples.

Results

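The Hoxa cluster genes are a row of homeobox genes on mouse chromosome 6. They were followed here as 9 of the 23552 genes with a deposited value, chosen because their Ensembl identifiers map to Hoxa2, Hoxa3, Hoxa4, Hoxa5, Hoxa6, Hoxa7, Hoxa9, Hoxa10 and Hoxa11. The rule uses the identifiers and no measured value, although the genes were picked with earlier results of these data known. Hoxa13 was not analysed here. RNA-seq was done on c-Kit+ leukemic cells, c-Kit being a receptor carried by immature blood cells, enriched from the bone marrow of moribund C57BL/6 mice with acute myeloid leukemia (AML) driven by MLL-AF9 (MA9). The control group, 2 libraries (replicates 3 and 4), carried an eGFP vector, and the SUV-OE group, 2 libraries (replicates 2 and 3), overexpressed Suv39h1 with eGFP. Both groups therefore carried the MA9 fusion and an eGFP vector. Per the paper, Suv39h1 was placed in an MSCV-IRES-EGFP plasmid, transduced cells were sorted by eGFP and passed into sub-lethally irradiated recipients, and the RNA came from first-passage (P1) AML cells. Sub-lethal irradiation leaves part of a host's own marrow in place. The study's mice were female and 8 weeks old when used, by its methods, and the labels give no age at RNA collection. All 4 libraries belong to RNA-seq batch 2.

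HOX proteins are transcription factors that bind DNA through a homeodomain, usually beside a PBX or MEIS partner, and give cells their position along the body axis. In blood, the Hoxa genes are active in stem and progenitor cells and are turned down as myeloid cells mature. MLL fusion proteins such as MLL-AF9 hold the middle and posterior Hoxa genes in an active state, and Hoxa9 with Meis1 is a well-known driver of this leukemia. SUV39H1, the enzyme overexpressed here, places the repressive H3K9me3 mark on histone H3. The comparison asks whether the RNA of these genes differed between SUV-OE and control cells.

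In mm10 the 9 genes lie on the minus strand within 83.4 kb of chromosome 6, from Hoxa2 (chr6:52162417-52164831) to Hoxa11 (chr6:52242106-52245810). Between them, in order, are Hoxa3 (chr6:52169062-52213336), Hoxa4 (chr6:52189671-52191753), Hoxa5 (chr6:52201754-52204587), Hoxa6 (chr6:52206288-52208722), Hoxa7 (chr6:52214491-52221854), Hoxa9 (chr6:52223100-52231089) and Hoxa10 (chr6:52231197-52240854). The annotated body of Hoxa3 reaches over Hoxa4, Hoxa5 and Hoxa6, and only 107 bases separate Hoxa9 from Hoxa10. RefSeq promoter sequences (GRCm38.p6, the same build) were matched for 8 of the 9 genes. Hoxa4 had no entry. The sequences below are the 250 bases upstream of a RefSeq start, 5′ to 3′ on the minus strand. They are shown for Hoxa9 (chr6:52227371-52227620) and for both starts of Hoxa10 (chr6:52240855-52241104 and chr6:52234940-52235189), the pair that kept the steadiest ratio, for Hoxa5 (chr6:52204588-52204837), an abundant member, and for Hoxa2 (chr6:52164832-52165081), the one member higher in both SUV-OE libraries. Capitals mark matches on either strand to one of 4 short words. The first is TGATNNAT, the joint recognition word of a HOX protein and its PBX partner. The CCAAT box is searched as its own name spells it. The GC box, a binding word of SP family factors found in many housekeeping promoters, is GGGCGG. The TATA box, where the general transcription machinery can dock ahead of a start site, is TATAAA.
Hoxa9: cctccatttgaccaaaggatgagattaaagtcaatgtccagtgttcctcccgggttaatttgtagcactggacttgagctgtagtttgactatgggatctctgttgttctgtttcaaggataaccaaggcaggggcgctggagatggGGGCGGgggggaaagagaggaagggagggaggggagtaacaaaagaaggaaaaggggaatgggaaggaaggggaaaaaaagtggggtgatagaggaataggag
Hoxa10, upstream start: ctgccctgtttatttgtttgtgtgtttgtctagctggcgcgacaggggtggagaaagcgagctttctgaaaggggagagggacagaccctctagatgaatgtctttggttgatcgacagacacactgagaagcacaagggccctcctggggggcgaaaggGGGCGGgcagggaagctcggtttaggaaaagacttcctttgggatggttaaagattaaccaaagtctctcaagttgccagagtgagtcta
Hoxa10, downstream start: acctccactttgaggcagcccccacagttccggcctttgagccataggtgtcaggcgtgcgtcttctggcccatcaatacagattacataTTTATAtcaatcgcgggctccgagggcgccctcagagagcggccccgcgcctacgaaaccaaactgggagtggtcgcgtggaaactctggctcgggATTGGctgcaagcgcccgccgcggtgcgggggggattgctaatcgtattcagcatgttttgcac
Hoxa5: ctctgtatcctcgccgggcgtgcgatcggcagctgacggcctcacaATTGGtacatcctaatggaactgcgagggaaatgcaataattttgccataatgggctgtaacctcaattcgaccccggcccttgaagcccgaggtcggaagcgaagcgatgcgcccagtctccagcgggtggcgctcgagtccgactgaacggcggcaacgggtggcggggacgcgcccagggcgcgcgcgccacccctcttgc
Hoxa2: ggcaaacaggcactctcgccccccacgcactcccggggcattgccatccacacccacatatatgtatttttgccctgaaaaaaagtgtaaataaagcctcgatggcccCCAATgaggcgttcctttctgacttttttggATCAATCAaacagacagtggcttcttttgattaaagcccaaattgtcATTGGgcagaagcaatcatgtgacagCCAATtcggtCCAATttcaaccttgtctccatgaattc

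The windows differed in base composition. The Hoxa9 window held 3 CpG and the upstream Hoxa10 window 7, near or below the median of 6 over 32851 mouse promoters of the same length. The downstream Hoxa10 window held 20 CpG and the Hoxa5 window 28. Hoxa9 and the upstream Hoxa10 start each had 1 GC box, 103 and 90 bases upstream, a word found in 32.7% of all promoters. The downstream Hoxa10 start had a TATA box match 160 bases upstream (12.4% of all promoters hold one) and a CCAAT box match 64 bases upstream (33.8% of all promoters). Hoxa2 had 4 CCAAT matches and, 111 bases upstream, the single HOX and PBX match among the 9 windows searched, a word that 7.68% of all promoters hold. These matches are of letters, and no binding was measured.

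Recovered reads ranged from 20085762 to 23561149 per library. Suv39h1, the overexpressed gene, had FPKM of 12.4 in both control libraries, with 75.3 and 81.2 under overexpression, and its relative Suv39h2 had a log2 fold change of -0.22 (limma adjusted p = 0.437). Kit, the marker used for enrichment, had FPKM of 20.4 and 19.2 (control) and 28.6 and 25.4 (SUV-OE). All 12 listed progenitor genes were above 0 in each library, summing to FPKM of 5516 and 6152 (control) and 4085 and 4873 (SUV-OE). By fit 6 of these were higher and 6 lower (median log2 fold change 0.016). In both SUV-OE libraries 5 were lower (28.4% of all tested genes) and 2 higher (25.4%). Limma called 0, with 4 at an unadjusted p under 0.05 (20.7% of all tested genes), and limma-voom called 0 of 8. Without Ctsg, a granule protease gene left out after its values were seen, the sums overlapped, at 3280 and 3365 (control) and 2859 and 3521 (SUV-OE). Markers of other cell types differed between libraries. The 12 late neutrophil genes summed to FPKM of 776 and 2417 (control) and 6729 and 8175 (SUV-OE). All 12 were higher in both SUV-OE libraries (25.4% of all tested genes were), and limma called 2 (1.22% of all tested genes), while limma-voom on recovered reads called all 10 that it tested (5.33% of all genes it tested). The 11 B-lymphoid genes summed to 19.7 and 29.4 (control) and 44.2 and 104 (SUV-OE), with 8 of the 10 tested higher in both SUV-OE libraries, 0 called by limma and 6 of 8 called by limma-voom, and each was above 0 in all libraries. The 11 erythroid genes with values summed to 19.8 and 143 (control) and 136 and 104 (SUV-OE), so the groups overlapped, with 6 higher in both SUV-OE libraries, 1 called by limma and 2 of 7 by limma-voom. The part of these cells in the Hoxa values was not tested, and in bulk RNA fewer cells of a type and less RNA per cell cannot be told apart.

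FPKM divides the fragments of a gene by its length and by the library's depth, so that levels can be set side by side between genes. For most genes the values fitted a length of all annotated exons pooled, such as 5580 bases for Hoxa9 and 874 for Hoxa6. A gene with a shorter main transcript would be understated, so the order and shares below depend on these lengths. Transcripts of the middle and posterior genes made up nearly all Hoxa RNA. The 5 genes Hoxa5, Hoxa6, Hoxa7, Hoxa9 and Hoxa10, which span 39.1 kb, held 95.6% to 96.8% of the summed FPKM of the 9 members in each library. Hoxa9, the posterior gene best known in this leukemia, was the most abundant member in all 4 libraries and alone held 28.8% to 31.5% of the sum. By mean FPKM over the 4 libraries, the order was Hoxa9 (45.5), Hoxa5 (30.3), Hoxa6 (27.6), Hoxa10 (26.5), Hoxa7 (17.3), Hoxa3 (2.86), Hoxa2 (1.28), Hoxa4 (1.05) and Hoxa11 (0.197). The ranges over the libraries overlapped between Hoxa5 and Hoxa6, between Hoxa6 and Hoxa10 and between Hoxa2 and Hoxa4, so these neighbours were not ordered beyond their spread. Among the other neighbours the ranges did not overlap.

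Level did not follow position smoothly. Hoxa4 and Hoxa5 lie 10000 bases apart, and the mean FPKM of Hoxa5 was 28.7 times that of Hoxa4. At the posterior end, 1251 bases separate Hoxa10 from Hoxa11, and the mean FPKM of Hoxa11 was 0.00744 times that of Hoxa10. The 13 genes of the Hoxb, Hoxc and Hoxd clusters with values summed to FPKM of 2.14 and 2.52 (control) and 4.38 and 5.17 (SUV-OE). The 9 Hoxa genes summed to 190 and 149 (control) and 127 and 144 (SUV-OE). The plot of levels by gene and library shows the step up at Hoxa5 and the step down at Hoxa11 in each library.

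**Figure D1:**
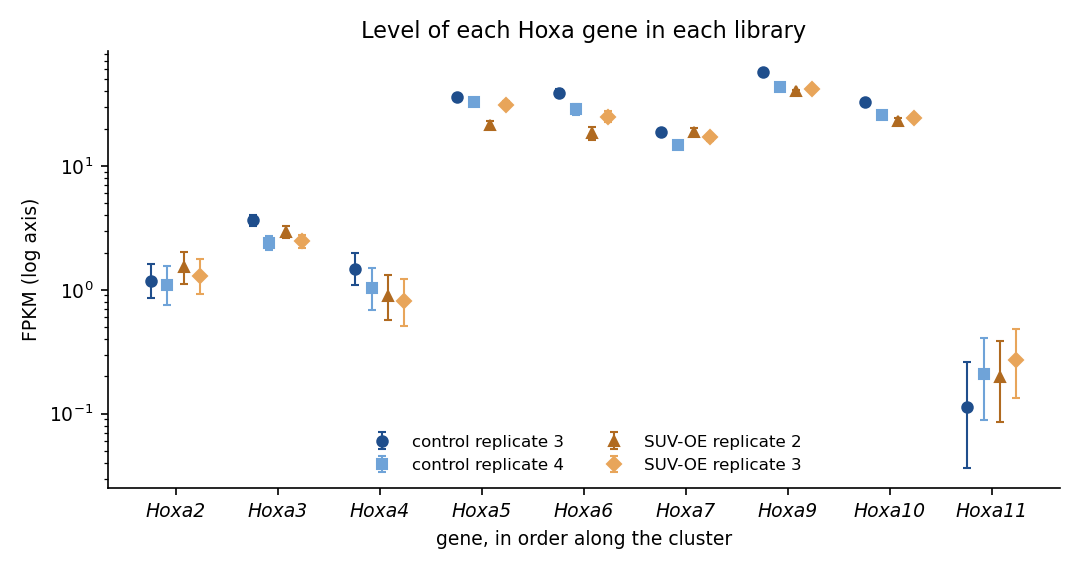
FPKM (log axis) of the 9 Hoxa genes in order along the cluster, 1 point per library, with exact 95% Poisson intervals of the recovered reads, which cover counting error only. Hoxa5 to Hoxa10 lie between 14.7 and 57.3 in all libraries, Hoxa2 to Hoxa4 between 0.812 and 3.64, and Hoxa11 between 0.112 and 0.271.

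None of the Hoxa genes was called different between SUV-OE and control. Of the 9 members, 8 passed the filter of a mean FPKM of at least 0.5, and limma called 0 of these 8. A call needed an adjusted p-value under 0.05 together with a log2 fold change of 1 or more in either direction. The same rule called 1.22% of the 13736 tested genes, of which 0.815% were higher and 0.408% lower in SUV-OE. One member, Hoxa6, had an unadjusted p-value under 0.05, as did 20.7% of all tested genes. The other tool run, limma-voom on recovered reads, called 0 of the 8 members, with 1 at an unadjusted p-value under 0.05, against 5.33% of its 10427 tested genes called. Both SUV-OE libraries lay below both control libraries in 5 of the 9 members (28.4% of all tested genes) and above in 1 (25.4% of all tested genes), and the groups overlapped in 3. The median log2 fold change of the 8 tested members was -0.28, beside -0.022 over all tested genes. Fold changes are on the log2(FPKM + 1) scale, which understates the change of low genes such as Hoxa2 and Hoxa4. Nothing in the labels says that the libraries of a group came from separate mice, so p-values measure the spread between these libraries.

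Hoxa9 had FPKM of 57.3 and 43.0 in the control libraries (replicates 3 and 4) against 40.1 and 41.5 in the SUV-OE libraries (replicates 2 and 3), the order kept for the genes that follow, resting on 3966 to 6221 reads. One control library stood above the other 3, which lay within 40.1 to 43.0. The log2 fold change was -0.28 (standard error 0.17, 95% interval -0.72 to 0.17, limma adjusted p = 0.421). It was -0.073 without control replicate 3, -0.48 without control replicate 4 and -0.13 under quantile normalization.

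Hoxa10, whose protein shares the posterior, Abd-B type of homeodomain with HOXA9, had control FPKM of 32.7 and 25.6 and SUV-OE FPKM of 23.1 and 24.4. Control replicate 3 was again the highest, and the groups did not overlap. The log2 fold change was -0.28 (standard error 0.15, 95% interval -0.68 to 0.12, limma adjusted p = 0.379). It was -0.11 without control replicate 3, -0.16 under quantile normalization and -0.45 without control replicate 4. Hoxa9 and Hoxa10 moved between libraries almost in step. The ratio of Hoxa9 to Hoxa10 FPKM was 1.75 and 1.68 (control) and 1.73 and 1.70 (SUV-OE), so its highest value was 1.04 times its lowest.

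Hoxa6, a middle gene of the cluster, had the lowest fold change among the members. The control libraries read 38.7 and 28.6 FPKM and the SUV-OE libraries 18.3 and 24.9, on 284 to 658 reads. Both SUV-OE libraries were below both control libraries, and the higher library of a group was 1.35 times the lower in control and 1.36 times in SUV-OE. The log2 fold change was -0.62 (standard error 0.22, 95% interval -1.19 to -0.045, limma adjusted p = 0.218). Its unadjusted limma p-value was 0.0394. Of the 11 alternative settings, 7 kept that p-value under 0.05, from 0.0354 to 0.0481, and 4 did not. It was 0.0586 under quantile normalization, 0.0665 with no filter on low values, 0.189 without control replicate 3 and 0.209 without SUV-OE replicate 2. With 1 library left out the log2 fold change ranged from -0.83 to -0.40.

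Hoxa5, a middle gene that the cluster places beside Hoxa6, had control FPKM of 36.0 and 32.6 and SUV-OE FPKM of 21.3 and 31.2. SUV-OE replicate 2 was low, while SUV-OE replicate 3 was close to the control libraries. The log2 fold change was -0.40 (standard error 0.21, 95% interval -0.93 to 0.14, limma adjusted p = 0.351). It was -0.13 without SUV-OE replicate 2 and -0.66 without SUV-OE replicate 3.

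Hoxa7, the remaining gene of the abundant group, did not share the lower values. The control libraries read 18.8 and 14.7 FPKM and the SUV-OE libraries 18.8 and 17.0, and the groups overlapped. The log2 fold change was 0.099 (standard error 0.16, 95% interval -0.31 to 0.51, limma adjusted p = 0.750). It ranged from -0.067 without control replicate 4 to 0.27 without control replicate 3, and it was 0.18 under quantile normalization and 0.20 with limma-voom. Of the exon bases of Hoxa7, 20.4% are shared with the antisense gene Hoxaas3, and the TruSeq v2 kit does not mark strand, so reads of the pair cannot be told apart there.

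The anterior genes Hoxa2, Hoxa3 and Hoxa4, best known for patterning the hindbrain, pharyngeal arches and neck, were expressed at low levels. Hoxa2 had control FPKM of 1.19 and 1.10 and SUV-OE FPKM of 1.52 and 1.30. It was the one member above control in both SUV-OE libraries, on 33 to 48 reads, and its counting intervals overlapped in all libraries. The log2 fold change was 0.17 (standard error 0.15, 95% interval -0.23 to 0.56, limma adjusted p = 0.572). It was 0.024 under quantile normalization, 0.10 without SUV-OE replicate 2, 0.28 with a pseudocount of 0.1 and 0.39 with limma-voom.

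Hoxa4 had control FPKM of 1.48 and 1.04 and SUV-OE FPKM of 0.884 and 0.812, on 23 to 46 reads. Both SUV-OE values were the lower ones, with a log2 fold change of -0.29 (standard error 0.18, 95% interval -0.74 to 0.17, limma adjusted p = 0.419). The Hoxa4 value was -0.14 without control replicate 3, -0.43 without control replicate 4, -0.46 with limma-voom and -0.51 with a pseudocount of 0.1. Hoxa3 had control FPKM of 3.64 and 2.40 and SUV-OE FPKM of 2.94 and 2.47. Its control libraries lay on either side of both SUV-OE libraries, with a log2 fold change of -0.10 (standard error 0.20, 95% interval -0.62 to 0.42, limma adjusted p = 0.798), which ranged from -0.33 without control replicate 4 to 0.12 without control replicate 3. Annotated exons of other genes share 27.1% of the exon bases of Hoxa3, 16.0% of those of Hoxa4 and 15.0% of those of Hoxa2, so part of these low values may be counted from either gene.

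Hoxa11, a posterior gene known for limb and uterine development, was close to the limit of detection. The control libraries held 5 and 8 reads of it and the SUV-OE libraries 8 and 11, against a floor of 3 reads, which gave FPKM of 0.112, 0.207, 0.197 and 0.271 in the same order. It was under the filter, and the groups overlapped. Limma with no filter on low values gave Hoxa11 a log2 fold change of 0.090 with a standard error of 0.067 and an adjusted p = 0.577. The counting intervals of all 4 libraries overlapped, and 35.0% of its exon bases are shared with the antisense gene Hoxa11os.

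Control replicate 3 stood apart within the cluster. It exceeded control replicate 4 in 8 of the 9 members and by at least 1.2 times in 6 of them (Hoxa3, Hoxa4, Hoxa6, Hoxa7, Hoxa9 and Hoxa10). Over all tested genes, 49.8% were higher in control replicate 3 than in control replicate 4, and 24.9% by at least 1.2 times. This library also had the lowest summed neutrophil, B-lymphoid and erythroid FPKM, and the part of these cells in the Hoxa levels was not tested. Without control replicate 3, the median log2 fold change of the 8 members was -0.089.

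**Figure D2:**
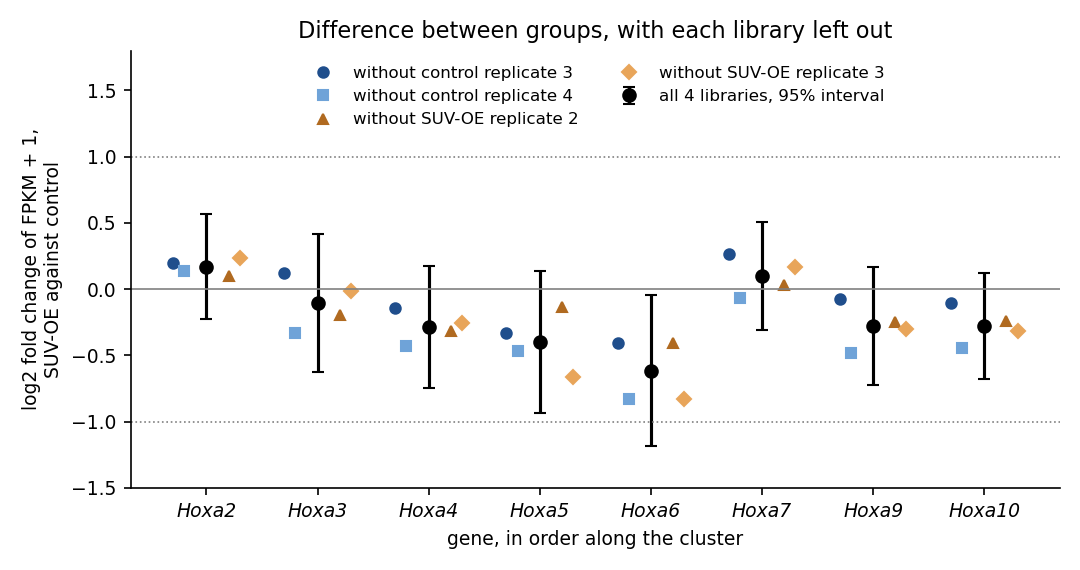
log2 fold change of FPKM + 1, SUV-OE against control, for the 8 tested Hoxa genes. Black points with bars are the fit to all 4 libraries with its 95% interval, coloured points the fit without 1 library, and dotted lines the threshold of 1. Of the 8 intervals only that of Hoxa6 (-1.19 to -0.045) leaves out 0, and the points without control replicate 3 lie above the black points.

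Ratios within a library do not depend on how the libraries were scaled against each other. Relative to Hoxa9, Hoxa7 was higher in both SUV-OE libraries than in either control library, with Hoxa9 to Hoxa7 ratios of 3.05 and 2.92 (control) and 2.12 and 2.45 (SUV-OE). Hoxa6 was lower relative to Hoxa7, with ratios of 2.06 and 1.94 (control) and 0.971 and 1.47 (SUV-OE). The ratio of Hoxa2 to Hoxa4 was 0.800 and 1.06 (control) and 1.72 and 1.60 (SUV-OE), on few reads. These are some of the 36 ratios among the 9 members, named after their values were seen, and ratios that share a member are not independent. Of the 36 ratios, 25 did not overlap between the groups, so a ratio that does not overlap was the usual case among these members. The share among ratios of other genes was not computed, so the count cannot be read as particular to the Hoxa genes. An exact two-sided permutation test of 2 libraries against 2 cannot go below p = 0.333, so none of the ratios could pass a threshold of 0.05.

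**Figure D3:**
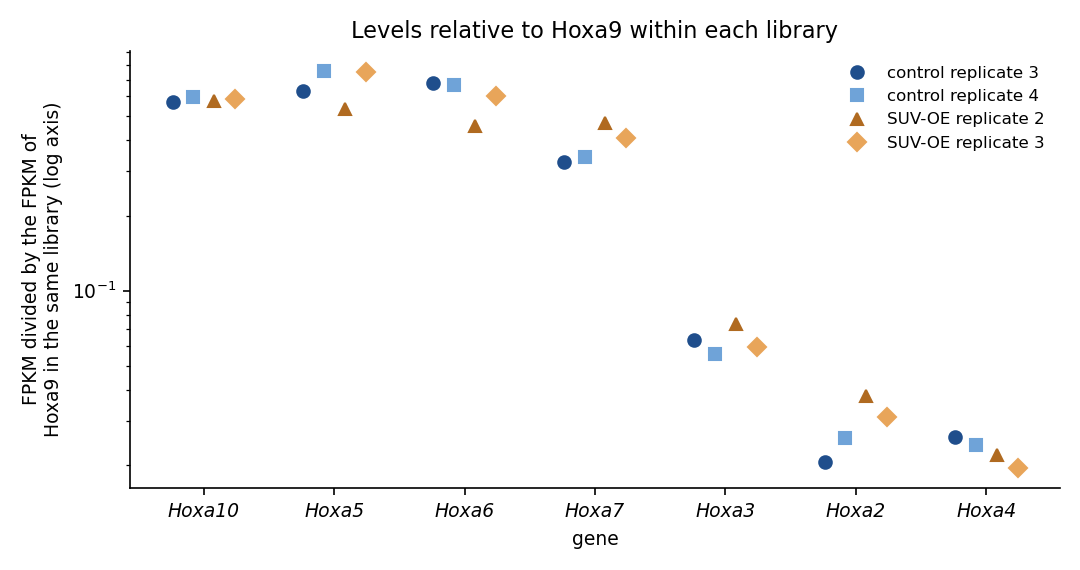
FPKM of 7 Hoxa genes divided by the FPKM of Hoxa9 in the same library (log axis), 1 point per library. The 4 points of Hoxa10 nearly coincide, those of Hoxa7 and Hoxa2 are higher in both SUV-OE libraries, and those of Hoxa6 and Hoxa4 are lower in both.

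Genes whose profile over the 4 libraries was most like that of Hoxa9, by the root mean square difference of centred log2(FPKM + 1), were Pggt1b (0.0086), Wsb2 (0.0090), Erfe (0.015), Uba1 (0.015) and Tfeb (0.016). Hoxa10 ranked 21 of 13735 genes, with a difference of 0.025. With 4 libraries a close profile is common, and 941 genes lay within 0.1 of Hoxa9. Among the other members, Hoxa4 ranked 229 and Hoxa3 ranked 1510, while Hoxa6 (5187), Hoxa5 (4647), Hoxa7 (4611) and Hoxa2 (7135) were farther off.

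Genes in and next to the cluster were not called either. Of the 7 tested, limma called 0, with 1 at an unadjusted p under 0.05, limma-voom called 0, and 4 were higher and 3 lower by fit. Hoxaas3, the antisense transcript at Hoxa7, had a log2 fold change of -0.31 (limma adjusted p = 0.365). The flanking genes Snx10, a sorting nexin, and Hibadh, an enzyme of valine breakdown, had 0.49 and 0.21 (limma adjusted p = 0.139 and 0.365), Snx10 had 0.72 by limma-voom (adjusted p = 0.0337), and Cbx3, which encodes the H3K9me3 reader HP1 gamma, had -0.11 (limma adjusted p = 0.616). Skap2, an adaptor protein gene that flanks the cluster, had control FPKM of 22.3 and 26.0 and SUV-OE FPKM of 25.3 and 26.7, a level near that of Hoxa10.

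In the other Hox clusters, 2 genes had a mean FPKM over the filter, and limma called neither. Hoxb4, a stem cell homeobox gene, had control FPKM of 0.301 and 1.13 and SUV-OE FPKM of 3.60 and 4.38, with a log2 fold change of 1.58 (limma adjusted p = 0.0828). Hoxb13, a posterior gene, had control FPKM of 1.77 and 1.07 and SUV-OE FPKM of 0.179 and 0.127, with a log2 fold change of -1.06 (limma adjusted p = 0.0983). By limma-voom on recovered reads both passed, Hoxb4 with a log2 fold change of 2.87 (adjusted p = 0.0213) and Hoxb13 with -3.01 (adjusted p = 0.0255), whereas no Hoxa gene did.

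Limma called none of the tested genes of HOXA9 partner proteins, with 0 at an unadjusted p under 0.05, and limma-voom called 0 of 4. Of 5 tested TALE cofactor genes, 4 were higher and 1 lower by fit. Meis1, which acts with Hoxa9 in this leukemia, had control FPKM of 14.5 and 13.5 and SUV-OE FPKM of 17.2 and 14.8, with a log2 fold change of 0.18 (95% interval -0.15 to 0.51, limma adjusted p = 0.484). Pbx3, a homeodomain partner, had a log2 fold change of -0.28 (95% interval -0.58 to 0.0090, limma adjusted p = 0.252). Pknox1, another TALE gene, had 0.25 (limma adjusted p = 0.296).

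The regulators that hold Hoxa genes on or off gave 0 calls by limma, with 5 activators and 2 repressors at an unadjusted p under 0.05 (20.7% of all tested genes). Limma-voom called 1 of 15 activators (Mllt3) and 1 of 15 repressors (Cbx2), against 5.33% of all genes it tested. Among 19 tested activators, 13 were higher and 6 lower by fit. Kmt2a, which encodes MLL itself, had a log2 fold change of 0.58 (limma adjusted p = 0.107), Mllt6 0.62 (0.110), Men1, the MLL cofactor menin, 0.17 (0.576), Dot1l, the H3K79 methyltransferase, 0.014 (0.971), Wdr5 -0.30 (0.318) and Mllt1 -0.24 (0.576), with limma adjusted p-values in parentheses. Among 16 tested repressors, 10 were higher and 6 lower by fit. Ezh2, the Polycomb H3K27 methyltransferase, had a log2 fold change of 0.024 (limma adjusted p = 0.923). Cbx2, a Polycomb reader protein, had 0.72 (limma adjusted p = 0.139), and Pcgf2, a ring finger subunit at FPKM of 0.190 and 0.420 (control) and 0.735 and 1.005 (SUV-OE), had 0.52 (limma adjusted p = 0.235), or 1.70 by limma-voom (adjusted p = 0.0709). Eed, a core Polycomb subunit, and Bmi1 had -0.24 and -0.19 (limma adjusted p = 0.403 and 0.381). By limma-voom, Kmt2a, Mllt6 and Cbx2 had adjusted p-values of 0.0323, 0.0254 and 0.0474, and of these Cbx2 also passed the fold change threshold (log2 fold change 1.16). Mllt3, the mouse gene of the fusion partner AF9, was under the limma filter, with control FPKM of 0.201 and 0.242 and SUV-OE FPKM of 0.502 and 0.501, and limma-voom gave a log2 fold change of 1.28 (adjusted p = 0.0370).

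Genes that general knowledge links to HOXA9 in myeloid leukemia included called genes, although Hoxa9 itself was not called. Of the 19 tested genes of this list that are reported here, which are not the whole list, limma called 2 (1.22% of all tested genes) and 11 had an unadjusted limma p under 0.05 (20.7% of all tested genes). By fit 16 were higher and 3 lower. In both SUV-OE libraries 13 were higher (25.4% of all tested genes) and 2 lower (28.4%). The 2 lower ones were Flt3, a receptor of early progenitors, and Cdkn2a, a cell cycle inhibitor gene (log2 fold change -0.81 and -0.59, limma adjusted p = 0.133 and 0.187). Eya1, a transcriptional coactivator and phosphatase, rose from FPKM of 1.93 and 2.30 to 15.1 and 12.8 (log2 fold change 2.26, limma adjusted p = 0.0146). Cybb, an NADPH oxidase subunit of maturing phagocytes, rose from 4.43 and 6.75 to 32.1 and 28.6 (log2 fold change 2.27, limma adjusted p = 0.0280). Limma did not call the other 17 tested genes. Limma-voom called 5 of the 16 that it tested (5.33% of all genes it tested), which were these 2, Bcl2 (log2 fold change 1.41, adjusted p = 0.0152), Mef2c (3.63, adjusted p = 0.00486) and Camk2d (2.44, adjusted p = 0.0283). By limma the list had a median log2 fold change of 0.47. Neutrophil marker RNA was higher in the same libraries as Cybb, as given above. So were 8 of the 10 tested B-lymphoid genes and 6 of the 11 erythroid genes. The part of these cells in the values of Cybb and of the list was not tested.

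**Figure D4:**
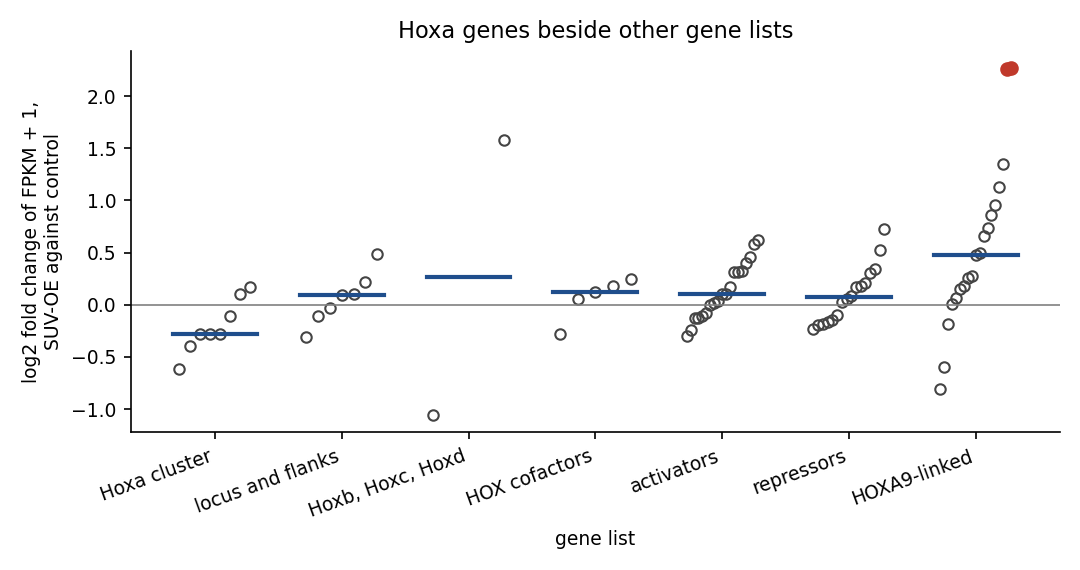
log2 fold change of FPKM + 1, SUV-OE against control, for each tested gene of 7 gene lists. Open points were not called by limma, filled points were, and bars are list medians (-0.28 for the 8 Hoxa genes, 0.47 for the HOXA9-linked genes). The Hoxa genes lie between -0.62 and 0.17, and the genes called by limma are Eya1 and Cybb.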

How the data were processed

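RNA-seq of 4 libraries of AML c-Kit+ cells was analysed. From TruSeq RNA v2 libraries read as paired ends, the authors aligned reads to mm10 with TopHat2 (the submitters' processing notes also name CASAVA 1.8) and deposited FPKM, credited to Cufflinks, for 23552 genes. How reads in overlapping exons were counted is not given in the sources used here. Symbols and exon lengths came from GENCODE M21 (23438 identifiers matched).

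Here limma 3.58.1 (R 4.3.3), with an intensity trend, tested SUV-OE against control on log2(FPKM + 1) for 13736 genes whose mean FPKM was 0.5 or more. A call needed a Benjamini-Hochberg adjusted p under 0.05 and a log2 fold change of 1 or more in either direction. Reads were recovered from the FPKM steps, whole within a tolerance of 0.01 in all libraries for 78.5% of genes. The recovered reads summed to 23561149 and 21189274 (control) and 20085762 and 20903009 (SUV-OE). The totals that the FPKM divide by were smaller, at 19453058 and 16873770 (control) and 17745310 and 17778673 (SUV-OE). At those smaller totals 3 reads on 1 kb of exons gave FPKM of 0.154 to 0.178. Such intervals and floors cover only counting error. The recovered reads were used for limma-voom at a mean of at least 10 reads, on genes with whole reads only. Its library sizes were the summed recovered reads, so its fold changes carry another scaling than the FPKM. Scripts were tested on simulated data.

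The members and gene lists were chosen with earlier results of these data known. Genes named are all members, Suv39h1 and Suv39h2, Meis1, Pbx3, Men1, Dot1l, Kmt2a, Ezh2, Hoxb13 and Hoxb4, the 5 genes most like Hoxa9 and, per list, those called or else the 2 with the largest change in each direction. Marker lists are given mainly as sums. A few genes that the lists first held are not reported here and were taken out of the lists' counts, medians and sums. Kit, Ctsg, Skap2, Hoxa11os, Mllt3, Bcl2, Mef2c, Camk2d, Flt3 and Cdkn2a were named beyond the rule, after their values were seen. Alternatives were a pseudocount of 0.1, no filter, a stricter filter (mean FPKM of 1 or more), no trend, scaling by median of ratios, quantile normalization, limma-voom, and leaving out each library. Figures were drawn with matplotlib 3.10.9.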

Additional observations from a re-analysis of the deposited data

How the results depend on the processing

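Of 88 single-gene values of the 8 tested Hoxa genes under the 11 alternatives, 86 kept their direction and side of the threshold and 2 changed sign, Hoxa3 without control replicate 3 (0.12) and Hoxa7 without control replicate 4 (-0.067). The fold changes under no filter, the stricter filter and no trend equal the main ones by construction. Those values could not change and count among the 86. With 1 library left out, Hoxa3 ranged from -0.33 to 0.12 and Hoxa7 from -0.067 to 0.27. No alternative called a Hoxa gene, but 5 of the 11 (no filter and each library left out) called 0 of all genes and say nothing on this. The median log2 fold change of the Hoxa genes was -0.28 and ranged from -0.44 (without control replicate 4) to -0.089 (without control replicate 3). Under the alternatives that kept all libraries, Hoxa9 ranged from -0.29 to -0.13, the latter under quantile normalization. Over all genes, 168 were called, with 0 when no filter was used (4177 at an unadjusted limma p under 0.05), 556 with limma-voom, and 0 to 0 when a library was left out (1166 to 3877 at an unadjusted limma p under 0.05, the lone library of a group being assumed to vary like the other group). The cause was not tested. The median log2 fold change of all tested genes was -0.022 with limma and 0.093 with limma-voom. Limma-voom tested fewer genes and scaled by the recovered reads, not by the totals that the FPKM divide by. The recovered reads exceed those totals more in the control libraries, which moves the limma-voom fold change of every gene up. No paired analysis was possible because control and SUV-OE have just 1 replicate number, 3, in common. With 2 libraries a group, changes as small as those of the Hoxa genes carry wide intervals, and depth limits Hoxa11, Hoxa2 and Hoxa4.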
